A study of Homo sapiens with 2 samples.

Results

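Ligands of the TGF-β superfamily act through a complex of type I and type II serine/threonine kinase receptors. The type II receptor binds ligand and phosphorylates the type I receptor, and the activated type I receptor phosphorylates SMAD proteins that then enter the nucleus. Among the type I receptors, ACVR1B (ALK4), TGFBR1 (ALK5) and ACVR1C (ALK7) act on SMAD2 and SMAD3, while ACVR1 (ALK2), BMPR1A (ALK3) and BMPR1B (ALK6) act on SMAD1, SMAD5 and SMAD9. The type II receptors ACVR2A and ACVR2B serve activins, Nodal and several GDFs and BMPs, BMPR2 serves BMPs, and TGFBR2 serves TGF-β itself. GDF1, like Nodal, is known to signal through ALK4 or ALK7 paired with an activin type II receptor and an EGF-CFC coreceptor.

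The 10 genes of these receptors were taken by symbol from the 58174 genes of the RNA-seq data, and each symbol was found once. PLC-8024, a human hepatocellular carcinoma (HCC) cell line, was sequenced as 1 library of control cells (PLC-8024-CTR, genotype Control, carrying the control vector) and 1 library of cells that stably overexpressed human GDF1 (PLC-8024-GDF1, genotype GDF1-overexpression). GDF1 was introduced by lentivirus and the cells were selected with puromycin, and the sources used here do not say whether they were a pool or a clone. Values are TPM, an abundance of transcripts scaled by gene length and by the total of the library. Levels can be compared between genes of a library. A TPM is a share of its library, so a difference between libraries also depends on what else each library held. TPM keeps no depth, and the libraries had no replicates. No replicate error can be given, and no test was made. PLC-8024-CTR is called the control library and PLC-8024-GDF1 the GDF1 library. A change is the log2 value of (TPM + 1) in the GDF1 library divided by (TPM + 1) in the control library, and a gene is called higher or lower where this passes 2-fold. Adding 1 shrinks the changes of weakly expressed genes. Every difference describes these 2 libraries.

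GDF1, the introduced gene, had 2.096 TPM in the control library and 4.64 TPM in the GDF1 library. CERS1, within whose span it lies on the same strand, had 13.3 and 9612 TPM. Reads of the introduced GDF1 may be listed under CERS1, and this was not tested. The value under GDF1 alone may therefore not measure the overexpression. Of 12 hepatocyte markers, 12 in the control library and 11 in the GDF1 library reached 1 TPM, and their summed TPM was 13590 and 9852. Of 4 epithelial markers 3 and then 2 did. CDH1 (E-cadherin) was listed at 10.4 and 0.329 TPM (log2 change -3.10), the keratin genes KRT19 at 4.46 and 10.9 TPM (1.13) and KRT7 at 3.004 and 7.98 TPM (1.17), and EPCAM at 0.172 TPM and then at 0.0001 TPM, which stands for 0. None (0) of 5 leukocyte markers did in either library, and 1 of 4 endothelial, 1 of 3 macrophage and 1 of 5 fibroblast markers did in each. These were PECAM1, CD68 and COL3A1, named after their values were seen, while the endothelial genes VWF and KDR were at the value for 0 in both libraries. The part of such differences in the receptor values was not tested, and in bulk RNA fewer cells of a type cannot be told apart from less RNA per cell.

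Of the 10 receptors, TGFBR2 was over 2-fold higher in GDF1 cells, and ACVR1B and ACVR1 were over 2-fold lower. A further 4 receptors (TGFBR1, BMPR1A, ACVR2A and ACVR2B) reached 1 TPM in at least 1 library and stayed within 2-fold, and 3 (BMPR2, ACVR1C and BMPR1B) were under 1 TPM in both libraries. Among all 14929 genes tested, which are those that reached 1 TPM in a library, 4.82% were called higher and 9.61% were called lower, against 1 higher and 2 lower of the 7 receptors that reached this minimum. The median change of all these genes was -0.20, so the typical gene was itself slightly lower in the GDF1 library. With that median set to 0, the share of called genes that were higher moved from 33.4% to 53.1%, TGFBR2 and ACVR1B remained past 2-fold and ACVR1 did not (-0.93).

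**Figure D1:**
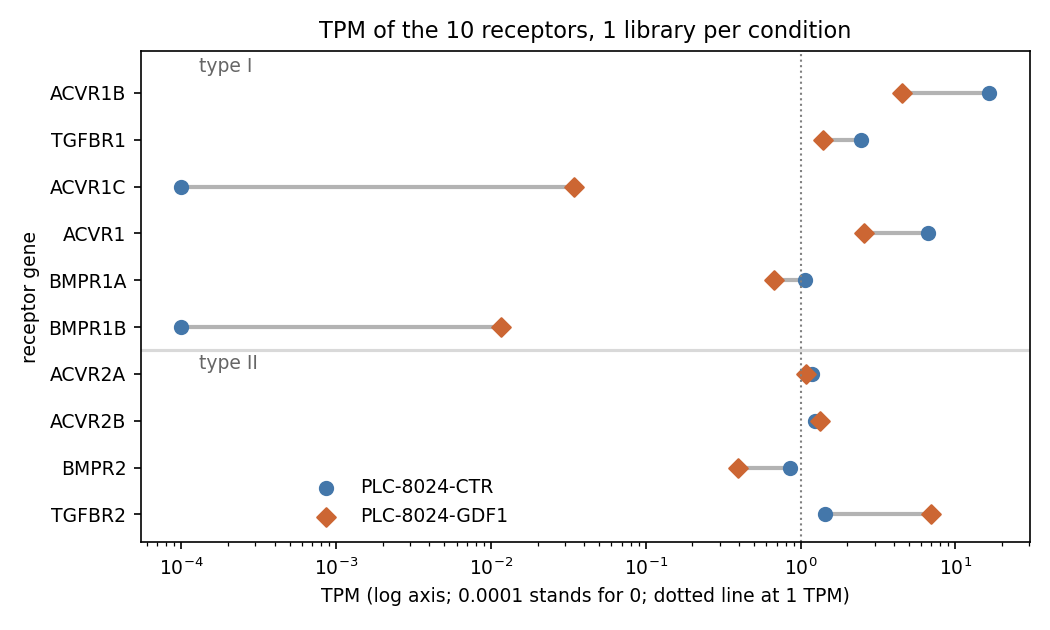
Each receptor gene (vertical axis) is drawn at its TPM in the control library (circle) and the GDF1 library (diamond) on a log axis, with 1 library per condition and therefore no error bars. TGFBR2 moves to the right, from 1.44 to 6.94 TPM, ACVR1B and ACVR1 move to the left, and ACVR1C and BMPR1B stay far under the dotted line at 1 TPM in both libraries.

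TGFBR2, the type II receptor that binds TGF-β, was listed at 1.44 TPM in the control library and at 6.94 TPM in the GDF1 library. This was a plain ratio of 4.81 and a log2 change of 1.70, which lay 1.90 above the median of all genes. It had the fourth highest TPM of the 10 receptors in the control library and the highest in the GDF1 library. Of all tested genes, 12.4% were listed below it in the control library and 50.7% in the GDF1 library, and 1.09% had a change at least as high. Under 6 other settings its log2 change ranged up to 2.27, and none brought it under 2-fold.

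ACVR1B (ALK4), the type I receptor of activins and Nodal, was listed at 16.6 TPM in the control library and at 4.51 TPM in the GDF1 library. The control library held 3.68 times the TPM of the GDF1 library, and the log2 change was -1.67, which was -1.47 relative to the median of all genes. ACVR1B had the highest TPM of the 10 receptors in the control library and the second highest in the GDF1 library, after TGFBR2. A change as low or lower was found for 2.38% of all tested genes. Its log2 change stayed past 2-fold under each setting tried, from -1.88 to -1.44.

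ACVR1 (ALK2), a type I receptor for BMPs that also binds activins, was listed at 6.69 TPM in the control library and at 2.57 TPM in the GDF1 library, a log2 change of -1.11. A change as low or lower was found for 7.29% of all tested genes. It was close to the 2-fold limit and was within 2-fold when the median of all genes was set to 0 (-0.93) or when a trend with GC content was subtracted (-0.67).

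TGFBR1 (ALK5), the type I receptor of TGF-β, was listed at 2.47 TPM in the control library and at 1.40 TPM in the GDF1 library, a log2 change of -0.53. TGFBR2, its type II partner, thus had 0.584 times the TPM of TGFBR1 in the control library and 4.95 times in the GDF1 library. These are ratios of levels within a library and do not depend on how the libraries were scaled. BMPR1A (ALK3), a BMP receptor, was listed at 1.07 and 0.677 TPM, a log2 change of -0.30.

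The study's knockdown experiments addressed ACVR1C (ALK7) together with ALK4 and ALK5. In the paper, knockdown of ALK7 abolished the gain in migration seen with GDF1 in PLC-8024 cells, while knockdown of ALK4 or ALK5 did not. The paper reports a similar result for sphere formation. Its discussion adds that ALK4 knockdown strongly raised sphere formation, with or without GDF1. The knockdowns were shown on protein by western blot, while the values here are RNA. ACVR1C was listed at 0.0001 TPM in the control library, the value listed in place of 0, and at 0.0342 TPM in the GDF1 library. BMPR1B (ALK6) was likewise at 0.0001 TPM in the control library and was listed at 0.0116 TPM in the GDF1 library. Levels this low cannot be told apart from 0 without the read depth, and no fold is given for either gene. In the GDF1 library, ACVR1C made up 0.372% of the summed TPM of the 6 type I receptors and ACVR1B made up 49.0%.

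The activin type II receptors were almost level between the libraries. ACVR2A was listed at 1.18 and 1.09 TPM, a log2 change of -0.06, and ACVR2B at 1.25 and 1.33 TPM, a log2 change of 0.05. ACVR2A turned from slightly lower to slightly higher (0.07) when the median of all genes was set to 0. BMPR2 was listed at 0.849 TPM in the control library and 0.395 TPM in the GDF1 library, a log2 change of -0.41 with the pseudocount and of -1.10 without it. Of the 8 receptors above the value for 0 in both libraries, 6 had lower TPM in the GDF1 library. The 2 with higher TPM were TGFBR2 and, by a log2 change of only 0.05, ACVR2B.

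The sums of receptor classes cover the 10 receptors only. The receptor genes ACVRL1 (0.367 and 0.570 TPM) and AMHR2 (0.0001 and 0.0347 TPM) are in another list. Both were named after their values were seen. Added up, the 6 type I receptors among the 10 held 26.8 TPM in the control library and 9.20 TPM in the GDF1 library. The 4 type II receptors held 4.72 TPM and 9.76 TPM, respectively. The summed type I TPM was therefore 5.67 times the summed type II TPM in the control library and 0.943 times in the GDF1 library. The same ratios were then taken without 2 genes chosen after their values were seen. Without TGFBR2 the ratios were 8.17 and 3.26, without ACVR1B they were 2.17 and 0.481, and without both they were 3.12 and 1.67.

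Within the type II receptors, TGFBR2 made up 30.6% of the summed TPM in the control library and 71.1% in the GDF1 library. ACVR2A moved from 25.1% to 11.2%, ACVR2B from 26.4% to 13.7% and BMPR2 from 18.0% to 4.05% of that sum. Without TGFBR2 the type II sum was 3.28 and 2.82 TPM, and ACVR2A with ACVR2B held 2.43 and 2.42 TPM, so the gain of the class lay in TGFBR2. Within the type I receptors, ACVR1B made up 61.8% in the control library and 49.0% in the GDF1 library, ACVR1 25.0% and 27.9%, and TGFBR1 9.22% and 15.2%. Both type I branches were lower, from 19.03 to 5.94 TPM for the SMAD2/SMAD3 branch and from 7.76 to 3.26 TPM for the SMAD1/SMAD5/SMAD9 branch.

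**Figure D2:**
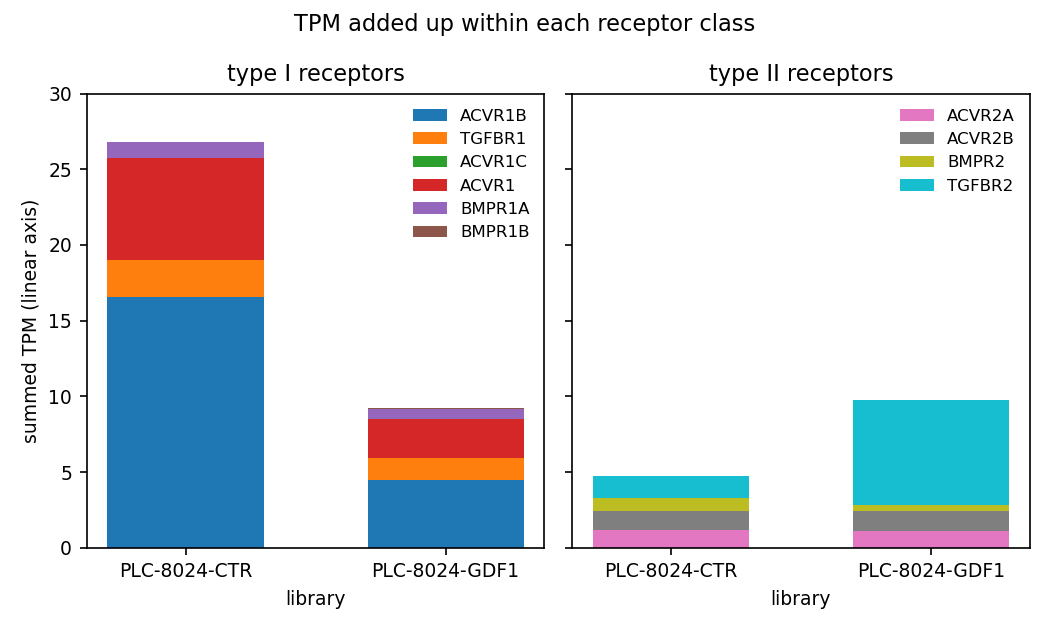
Bars give the TPM of the 6 type I receptors (left) and the 4 type II receptors (right) added up in each library on a linear axis from 0, with 1 library per bar and no error bars. The type I bar is lower in the GDF1 library (9.20 against 26.8 TPM) and the type II bar is higher (9.76 against 4.72 TPM), with TGFBR2 as its largest piece.

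The start regions of the 3 receptors past 2-fold are shown to place these genes in the genome and to compare their base composition. The 250 bases before the start are from RefSeq (GRCh38.p14), and each was found once, unchanged, in GRCh37 (hg19), the build the authors aligned to, directly before the start of the annotated main transcript. Capitals mark the motifs GGGCGG (bound by SP and KLF factors) and CCAAT (bound by NF-Y) on either strand. No other motif searched was found in these 3. TGFBR2 (ENSG00000163513) lies on the plus strand of chromosome 3 at chr3:30648093-30735634, and its main transcript has 7 exons and a coding sequence of 1701 bases. Its start region is chr3:30647843-30648092. ACVR1B (ENSG00000135503) lies on the plus strand of chromosome 12 at chr12:52345483-52390862, with 9 exons and a coding sequence of 1515 bases. Its start region is chr12:52345233-52345482. ACVR1 (ENSG00000115170) lies on the minus strand of chromosome 2 at chr2:158592763-158732842, with 11 exons and a coding sequence of 1527 bases, and its start region is chr2:158732843-158733092.
TGFBR2: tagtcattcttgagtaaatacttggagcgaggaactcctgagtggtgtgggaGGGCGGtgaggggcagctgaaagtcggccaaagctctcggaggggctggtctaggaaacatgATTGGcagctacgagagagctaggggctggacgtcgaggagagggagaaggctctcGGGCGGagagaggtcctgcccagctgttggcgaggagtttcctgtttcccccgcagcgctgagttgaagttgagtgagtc
ACVR1B: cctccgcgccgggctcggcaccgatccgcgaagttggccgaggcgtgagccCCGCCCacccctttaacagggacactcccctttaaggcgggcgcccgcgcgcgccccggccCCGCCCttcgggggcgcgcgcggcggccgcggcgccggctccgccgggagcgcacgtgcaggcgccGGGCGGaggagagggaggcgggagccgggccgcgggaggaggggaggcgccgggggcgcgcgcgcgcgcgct
ACVR1: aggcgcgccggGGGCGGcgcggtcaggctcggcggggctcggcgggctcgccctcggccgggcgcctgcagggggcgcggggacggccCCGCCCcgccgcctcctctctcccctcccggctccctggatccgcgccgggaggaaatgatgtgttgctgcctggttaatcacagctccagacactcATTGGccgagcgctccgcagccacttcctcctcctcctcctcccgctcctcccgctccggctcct

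The start region of ACVR1B held 82.8% G and C and 48 CG steps, that of ACVR1 75.2% and 30, and that of TGFBR2 58.4% and 12, against medians of 58% and 11 over the 35116 start regions of the same length in the RefSeq table. TGFBR2 thus had the least G and C of these 3, which were chosen by their change, and was close to the median. Among the other receptors, ACVR2A (40.8%) and BMPR1A (47.2%) had less, and neither was called higher. The start used for BMPR1A lay 856 bases from that of its annotated main transcript. GGGCGG was found in TGFBR2, ACVR1B and ACVR1, in 6 of the 10 receptors and in 42.6% of all start regions. CCAAT was found in TGFBR2 and ACVR1 but not in ACVR1B, in 4 of the 10 receptors and in 32.0% of all start regions. TATAAA was found in 1 of the 10 receptors, BMPR1A, and in 10.7% of all start regions. The SMAD palindrome GTCTAGAC and the AP-1 motif TGANTCA were found in 0 of the 10, and in 0.182% and 6.57% of all start regions. A match is a description of the letters and not evidence of a bound site.

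The GC content of transcripts moved with the changes, and its part in the receptor values was not tested. Among 11792 protein-coding genes with at least 1 TPM, ranked by the share of G and C in their longest transcript and cut into 5 groups of equal size, the median log2 change was -0.48 in group 1 (lowest GC) and 0.11 in group 5 (highest GC). ACVR1, TGFBR1, BMPR1A and ACVR2A were in group 1, where 14.03% of genes were called lower and 1.74% higher. TGFBR2 (42.7% GC) and ACVR2B (45.6% GC) were in group 2, where the median was -0.41 and 2.37% of genes were called higher. ACVR1B (52.6% GC) was in group 3, where the median was -0.28 and 12.1% of genes were called lower. With the trend on GC content subtracted, the log2 change was 2.06 for TGFBR2, -1.52 for ACVR1B and -0.67 for ACVR1, so the first pair stayed past 2-fold and ACVR1 did not. BMPR1A (0.12) and ACVR2A (0.38) turned from lower to higher.

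**Figure D3:**
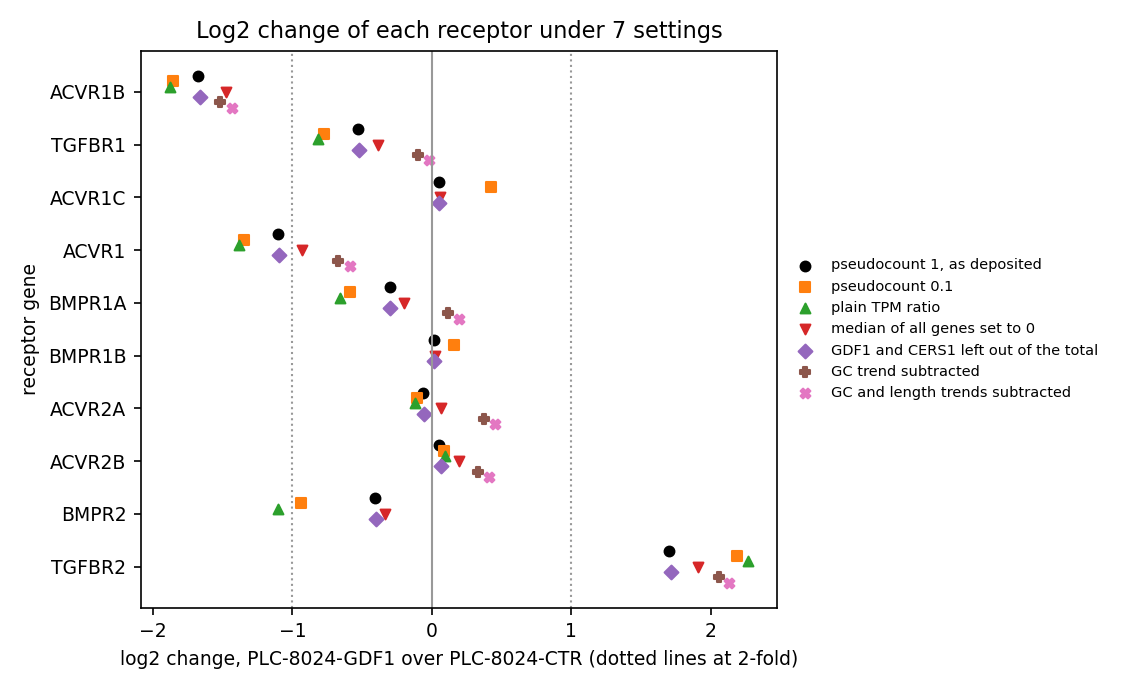
The log2 change of each receptor is drawn under 7 settings, the first (black circle) being the one used in the text, with dotted lines at 2-fold. TGFBR2 (1.70 to 2.27) and ACVR1B (-1.88 to -1.44) stay beyond the lines under each setting, ACVR1 (-1.38 to -0.59) crosses one, and the receptors under 1 TPM have no value for the GC trends.

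No receptor that passed 2-fold overlapped another gene with at least 1 TPM in the annotation. ACVR2A overlaps ORC4, a subunit of the origin recognition complex on the opposite strand, which was listed at 7.55 TPM in the control library and 1.58 TPM in the GDF1 library. Whether reads were counted by strand is not given in the sources used here, so reads of ACVR2A and ORC4 in the shared part may not be separable. Within 1 Mb of TGFBR2 the 1 other tested gene had a log2 change of -0.45. Within 1 Mb of ACVR1B, 20 other genes had a median change of -0.34, with 4 called higher and 4 lower.

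The other genes of the pathway were described by lists grouped by role. Of 102 further genes, 67 were tested, and 4 of these were called higher and 13 lower (5.97% and 19.4%, against 4.82% and 9.61% of all genes), with a median change of -0.32 against -0.20. The 13 became 7 when the median of all genes was set to 0 and 6 with the GC trend subtracted.

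Of 17 tested genes whose proteins act on the receptors, 2 were higher and 1 was lower, with a list median of -0.26. FKBP1A, which encodes the FKBP12 protein that binds type I receptors and holds them inactive, was listed at 28.9 TPM in the control library and 162.3 TPM in the GDF1 library, a log2 change of 2.45. It overlaps AL136531.2 on the same strand, which was listed at 2.14 and 0.281 TPM, and the log2 change of both genes added together was 2.35. TGFBRAP1, a receptor-associated protein, was listed at 0.512 and 3.51 TPM, a log2 change of 1.58. ZFYVE16 (endofin), an endosomal SMAD-binding protein, was lower at 1.96 and 0.220 TPM, a log2 change of -1.28. It overlaps the lncRNA AC008771.1 on the opposite strand (5.64 and 4.57 TPM), and the pair added together was within 2-fold (-0.57). The lncRNA changed less and had the higher TPM, so this sum cannot tell whether the ZFYVE16 value holds. With the GC trend subtracted, or with at least 5 TPM required, 0 genes of this list were lower.

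Of 12 other receptors, coreceptors and decoys, 5 reached 1 TPM, with 1 higher, 1 lower and a median of -0.52. TGFBR3L, a relative of the coreceptor betaglycan, was listed at 12.1 and 29.9 TPM, a log2 change of 1.23. NEO1 (neogenin), a partner of the BMP coreceptors of the RGM family, was listed at 8.72 and 3.54 TPM, a log2 change of -1.10. With the median of all genes set to 0, or with the GC trend subtracted, alone or with a trend on transcript length, 0 genes of this list were lower. The EGF-CFC coreceptors were at or close to 0. TDGF1 was listed at 0.0001 and 0.083 TPM and CFC1 at 0.0001 TPM in both libraries, and both were named after their values were seen.

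Of 7 tested SMAD genes, 4 were lower and 0 higher, with a median of -1.04. The 4 became 3 with the median of all genes set to 0, 2 with the GC trend or with the GC and length trends subtracted, and 1 with at least 5 TPM. SMAD2, a target of the ALK4, ALK5 and ALK7 kinases, was listed at 3.52 TPM in the control library and 0.513 TPM in the GDF1 library (log2 change -1.58), and SMAD3 at 24.0 and 11.1 TPM (-1.04). Both overlap another tested gene that was nearly level. SMAD2 overlaps the pseudogene MTCO2P2 on the same strand (4.47 and 4.81 TPM), and SMAD3 overlaps the lncRNA AC087482.1 on the opposite strand (12.7 and 12.9 TPM). Added to these genes, SMAD2 (-0.51) and SMAD3 (-0.59) were within 2-fold. Adding a nearly level gene brings any such sum closer to no change, so these sums cannot tell whether the SMAD values hold. Overlap was judged by whole gene spans, introns included. SMAD7, which blocks activated type I receptors, was listed at 3.77 and 0.426 TPM (-1.74). The fourth, SMAD1, was listed at 1.10 and 0.0210 TPM (-1.04) and was named beyond the rule of 3 genes per direction.

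Of 13 tested ligand genes, 0 were higher and 1 lower, with a median of 0.03. The introduced gene GDF1 is among the 13. It was counted by the value listed under its own name (log2 change 0.87), and the rise listed under CERS1 is not in this list. GDF15, a distant member of the superfamily, was listed at 4696 and 2294 TPM, a log2 change of -1.03. With the median of all genes set to 0, 2 ligand genes were higher and 0 lower. The introduced GDF1, by the value under its own name, was among these 2. Of 33 ligand genes in the list, 15 were at the value for 0 in both libraries. Of 6 tested secreted antagonists, 3 were lower and 0 higher, with a median of -0.76. FST (follistatin), which binds activins, was listed at 304.0 and 150.2 TPM (-1.01) and CHRD (chordin), which binds BMPs, at 25.0 and 9.80 TPM (-1.27). The 3 antagonists became 2 with the median of all genes set to 0, with GDF1 and CERS1 left out of the total or with either trend subtracted. CHRD overlaps THPO on the opposite strand, which was listed at 19.9 and 4.69 TPM (-1.88). The pair added together changed by -1.57. THPO was itself lower, so this sum cannot tell whether the CHRD value holds.

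Of 7 tested kinases and adaptors that carry signals beside the SMADs, 1 was lower and 0 higher, with a median of -0.29. This was LIMK1, an actin-regulating kinase that binds BMPR2, at 13.5 and 6.19 TPM (-1.01). It was just past the limit, and 0 genes of this list were lower with the median of all genes set to 0, with GDF1 and CERS1 left out of the total or with either trend subtracted. Of 14 tested response genes, 1 was higher and 3 were lower, with a median of -0.13. TGFBI, a gene known to be induced by TGF-β, was listed at 134.8 and 287.3 TPM, a log2 change of 1.09. CDKN2B, a cell cycle inhibitor, was listed at 3.30 and 1.02 TPM, a log2 change of -1.09, and SMAD7 is on this list too. CDKN2B overlaps the lncRNA CDKN2B-AS1 on the opposite strand, which was listed at 3.76 and 1.41 TPM (-0.98). Their added log2 change was -1.23. The lncRNA was itself lower, so this sum cannot tell whether the CDKN2B value holds. The response genes called lower became 2 with the median of all genes set to 0 or with either trend subtracted, and 1 with at least 5 TPM.

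**Figure D4:**
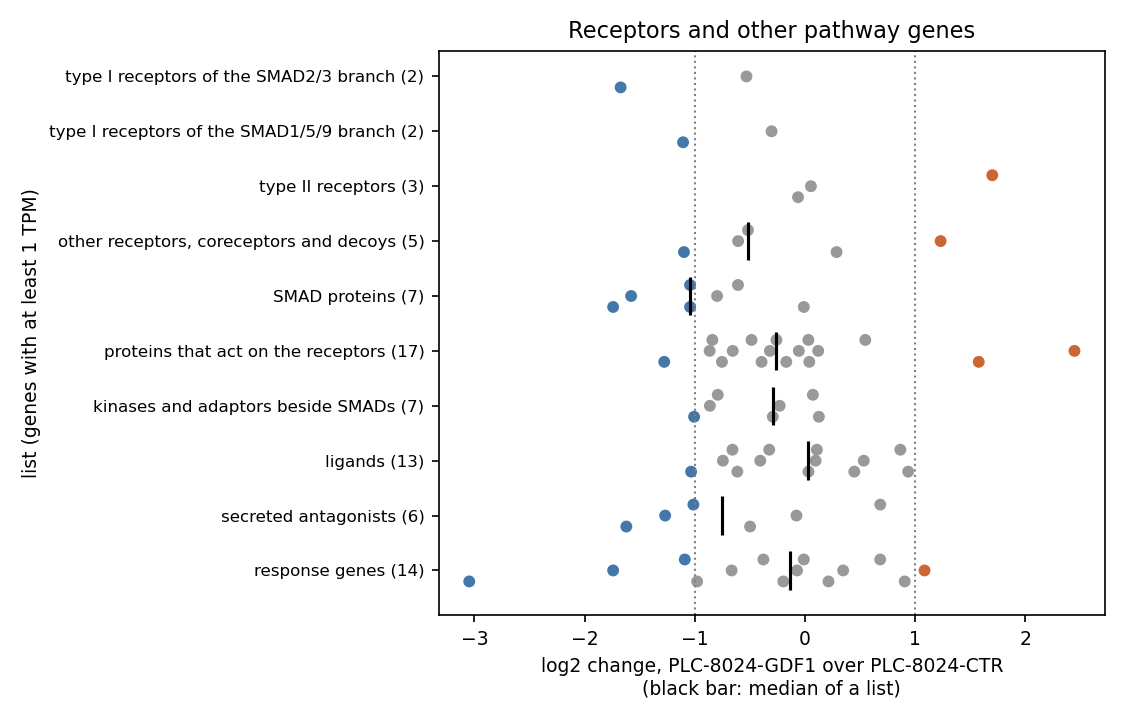
Each point is a tested gene, placed by its log2 change and grouped by list, with genes past 2-fold coloured, dotted lines at 2-fold and a black bar at the median of each list of 5 or more genes. Among the receptors TGFBR2 (1.70) stands to the right and ACVR1B (-1.67) to the left, and the SMAD list (median -1.04) lies left of the ligand list (median 0.03).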

How the data were processed

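Each condition, PLC-8024-CTR and PLC-8024-GDF1, had 1 RNA-seq library. Per the methods, the authors isolated mRNA with poly-T beads, trimmed the reads with Trimmomatic (0.36), aligned them to hg19 with HISAT2 (2.1.0), quantified them with StringTie (1.3.3b) and deposited 1 TPM value per gene. The column is headed as a mean TPM, and what it averages over 1 library is not given in the sources used here. A value of 0.0001 stands in place of 0. TPM keeps no depth, so precision is unknown and no count test was made.

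The members and lists were chosen with earlier results of these data known. Log2 changes used a pseudocount of 1, and genes that reached 1 TPM in a library were tested. Named genes were all 10 receptors, GDF1, CERS1, tested genes overlapping a receptor and, of each other list, up to 3 past 2-fold in each direction. Genes overlapping another listed gene, and single markers, were named after their values were seen. Positions, transcript length and GC content came from GENCODE v44 on GRCh37, by identifier (55726 of 58174 genes). Trends were fitted by lowess with a span of 0.3. RefSeq start regions matched 10 of 10 receptors by symbol; the motifs were chosen after the values were seen. Protein sequences were not used here. Values of 2 genes that the rule would name are left out of the text. Trends were computed with statsmodels 0.14.6, tables with pandas 2.3.3 and numpy 2.4.6, and plots with matplotlib 3.10.9, in Python 3.11.15. The calculations were tested on simulated data, which checks the code and not the values of the receptors.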

Additional observations from a re-analysis of the deposited data

How the results depend on the processing

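No paired analysis was possible because there were no replicates to pair. Of 52 values of single receptors under alternatives, 43 kept their direction and their side of 2-fold. ACVR1 was within 2-fold under 3 of them, BMPR2 passed 2-fold with the plain ratio (-1.10), and 5 turned sign: ACVR2A with the median of all genes set to 0 (0.066), and ACVR2A and BMPR1A with the GC trend subtracted (0.38 and 0.12) or the GC and length trends subtracted (0.45 and 0.19). Setting the median to 0 multiplies PLC-8024-GDF1 by 1.18. The cause of the GC trend was not tested. Receptors called lower numbered 1 in place of 2 under each of these 3 settings. Of other pathway genes, 4 higher and 13 lower became 7 and 20 both as plain ratios and with 0.1 added, and 7 and 7 with the median at 0. The introduced GDF1, by the value under its own name, is among the 7 higher in each case. Other pathway genes called lower became 6 with either trend subtracted and 7 with at least 5 TPM. Of all genes, 720 higher and 1434 lower became 1167 and 2315 with 0.1 added in place of 1, 1167 and 2380 as plain ratios, 1102 and 974 with the median at 0, 921 and 888 with the GC trend subtracted, 801 and 896 with both trends subtracted, and 471 and 1041 with at least 5 TPM. The share of called genes that were higher was 33.4% at first, 53.1% with the median at 0, 50.9% with the GC trend and 47.2% with both trends subtracted. Leaving GDF1 and CERS1 out of the total changed no receptor call, while other pathway genes called lower went from 13 to 11. The plain ratio was not computed for ACVR1C and BMPR1B, and the trends not for BMPR2, ACVR1C and BMPR1B, which were under 1 TPM.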
